A study of Mus musculus with 6 samples.

Results

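The glutathione transferases and the sulfotransferases of mouse liver were followed by name in the deposited gene table. A row was taken when its symbol was that of a cytosolic, kappa or microsomal glutathione transferase (Gst or Mgst) or began with Sult and a digit, and when at least 1 of the 6 libraries held a count for it. Of 55401 genes in the table, 52 carried such a name and 33 of these had a count, 24 of them glutathione transferases and 9 sulfotransferases. The animals were male C57BL/6 mice, 8 weeks old, with no engineered allele named. Those of the 9/13-HODEs group received 9-HODE and 13-HODE together, in equal parts and at a combined 0.5 μg per g of body weight, by intraperitoneal injection once daily for 9 days, and those of the Ctrl group were injected with the solvent, PEG400 in water. RNA-seq of polyadenylated RNA was performed on whole liver, with 1 library from each of 3 mice per group. 9-HODE and 13-HODE are hydroxylated products of linoleic acid, and the comparison asks how hepatic transcript levels differed after the mixture was given.

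Both families act in the conjugation phase of detoxification. Glutathione transferases join the thiol of glutathione to electrophiles such as lipid peroxidation products, drug epoxides and quinones, and they are grouped by sequence into the cytosolic alpha, mu, pi, theta, omega and zeta classes, the kappa class of mitochondria and peroxisomes, and the membrane-bound microsomal (MAPEG) class. Sulfotransferases pass a sulfonate group from the donor PAPS to hydroxyl groups. Members of SULT1 act mainly on phenols, catechols, thyroid hormones and oestrogens, and members of SULT2 act on steroids and bile acids. Several genes of both families differ between male and female mouse liver. Gstp1 and Gstp2 are higher in males, and Sult2a1 and Sult3a1 are expressed mainly in females.

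The pi class held the largest difference in FPKM between the groups (Gstp1), and its 3 genes did not move together: Gstp1 and Gstp2 were lower and Gstp3 was higher in the 9/13-HODEs livers. The 3 genes lie side by side on the minus strand of chromosome 19, Gstp1 at chr19:4035407-4037985, Gstp2 at chr19:4040285-4046023 and Gstp3 at chr19:4057477-4059461, as the table places them. The 250 bases before the first RefSeq start listed for each gene (build GRCm38.p6) are printed to show how alike these windows are. They run 5′ to 3′ on the gene's strand, and capitals mark the heptamer TGAGTCA, the reverse complement of TGACTCA, which is the AP-1 site.
Gstp1, chr19:4037913-4038162: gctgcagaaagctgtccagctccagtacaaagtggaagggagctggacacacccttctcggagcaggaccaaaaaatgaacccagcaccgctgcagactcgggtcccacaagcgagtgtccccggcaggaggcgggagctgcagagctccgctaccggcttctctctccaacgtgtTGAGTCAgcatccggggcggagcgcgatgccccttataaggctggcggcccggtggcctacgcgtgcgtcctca
Gstp2, chr19:4042222-4042471: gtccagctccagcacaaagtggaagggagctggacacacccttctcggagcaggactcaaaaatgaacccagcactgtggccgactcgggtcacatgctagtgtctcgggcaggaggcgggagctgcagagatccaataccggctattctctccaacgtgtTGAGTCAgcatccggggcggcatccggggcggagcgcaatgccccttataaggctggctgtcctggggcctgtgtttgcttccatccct
Gstp3, chr19:4059448-4059697: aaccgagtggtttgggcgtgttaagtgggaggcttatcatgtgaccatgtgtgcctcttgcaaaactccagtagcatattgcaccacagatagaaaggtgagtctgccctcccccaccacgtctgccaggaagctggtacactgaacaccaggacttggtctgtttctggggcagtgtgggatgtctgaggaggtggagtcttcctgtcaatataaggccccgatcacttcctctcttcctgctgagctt

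The Gstp2 window lies inside the span given above for that gene, not before its 5′ end, and other starts were not compared. The Gstp1 and Gstp2 windows were identical in 208 bases, or 78.5% of 265 alignment columns, with a longest common run of 43 bases. The Gstp3 window matched that of Gstp1 in 50.7% of columns and that of Gstp2 in 51.9%, and the longest run it shared with either was 8 bases. Over 300-base windows around each start (250 before and 50 after), the AP-1 heptamer on either strand occurred in 5.2% of 32851 RefSeq promoters. The 27 tested members with a RefSeq promoter had 37 such promoters in all. The heptamer occurred in 4 of these 37, belonging to Gstp1, Gstp2, Gstm5 and Sult1b1. The longer site TGANTCAGC is bound by CNC and small Maf proteins such as NRF2 with its partner. It occurred in 1.19% of promoters and in 2 of the 37, belonging to Gstp1 and Gstp2, where it overlaps the heptamer. The core of the antioxidant response element, TGACNNNGC, occurred in 12.4% of promoters and in 4 of the 37, belonging to Gsta3, Gstm5, Gstm7 and Mgst1. None of the 3 motifs matched in the window of Gstp3, and a match or its absence is a description of the sequence only.

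All levels below are FPKM, fragments per kilobase of transcript after scaling to the library's mapped total, as deposited. They are scaled to transcript length, so a comparison between genes rests on the length the authors used for each. A difference between groups is the log2 fold change of 9/13-HODEs over Ctrl fitted to the counts with edgeR, given with its standard error. The 6 libraries held between 70300597 and 78615288 counts. Of the 33 members, 30 had a mean FPKM of at least 0.1 and were tested with 14741 genes in all, 22 glutathione transferases and 8 sulfotransferases. The 3 others were scarcely counted. Gsto2 had 4, 0 and 4 counts in Ctrl and 12, 16 and 0 in 9/13-HODEs, Mgst2 had 4, 4 and 4 against 14, 4 and 0, and Sult2a2 had 8 counts in Ctrl replicate 3 alone.

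No member passed an adjusted p of 0.05 in edgeR, where 0.0204% of all tested genes did (3 genes, all lower). DESeq2 called 1 member, Gstp2, and limma on log2(FPKM + 0.1) called 0. At edgeR's unadjusted p under 0.05, 7 members differed, or 23.3% of the 30, beside 7.69% of all tested genes. Those higher in the 9/13-HODEs livers were 5 (Gstp3, Gstt1, Gstt2, Mgst3 and Sult1c2), beside 4.08% of all genes, and those lower were Gstp1 and Gstp2, beside 3.61%. The 3 Ctrl and the 3 9/13-HODEs values did not overlap for 8 members, or 26.7%, beside 15.1% of all genes. Of these 8, 5 were higher (background 5.28%) and 3 were lower (background 9.82%). Gstp1 and Gstp2 are counted as 2 members in these shares and in those that follow. Their counts cannot be separated with confidence, as described below. The study's methods define a differentially expressed gene by a fold threshold of 0.65 on the log2 scale and name no p-value there. Here that threshold was set on the ratio of mean FPKM with 0.1 added, and an unadjusted p under 0.05 was required as well. By this joint rule 4 members passed, all from the pi and microsomal classes, beside 3.11% of all genes. Sult2a8, with a mean FPKM of 72.5 in Ctrl and 33.0 in 9/13-HODEs, was past the fold alone (unadjusted p = 0.256 in edgeR). The log2 fold change was positive for 21 of the 30 (70.0%, beside 50.1% of all tested genes), with a median of 0.09 over the glutathione transferases and 0.29 over the sulfotransferases, and the median of all tested genes was 0.00.

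**Figure D1:**
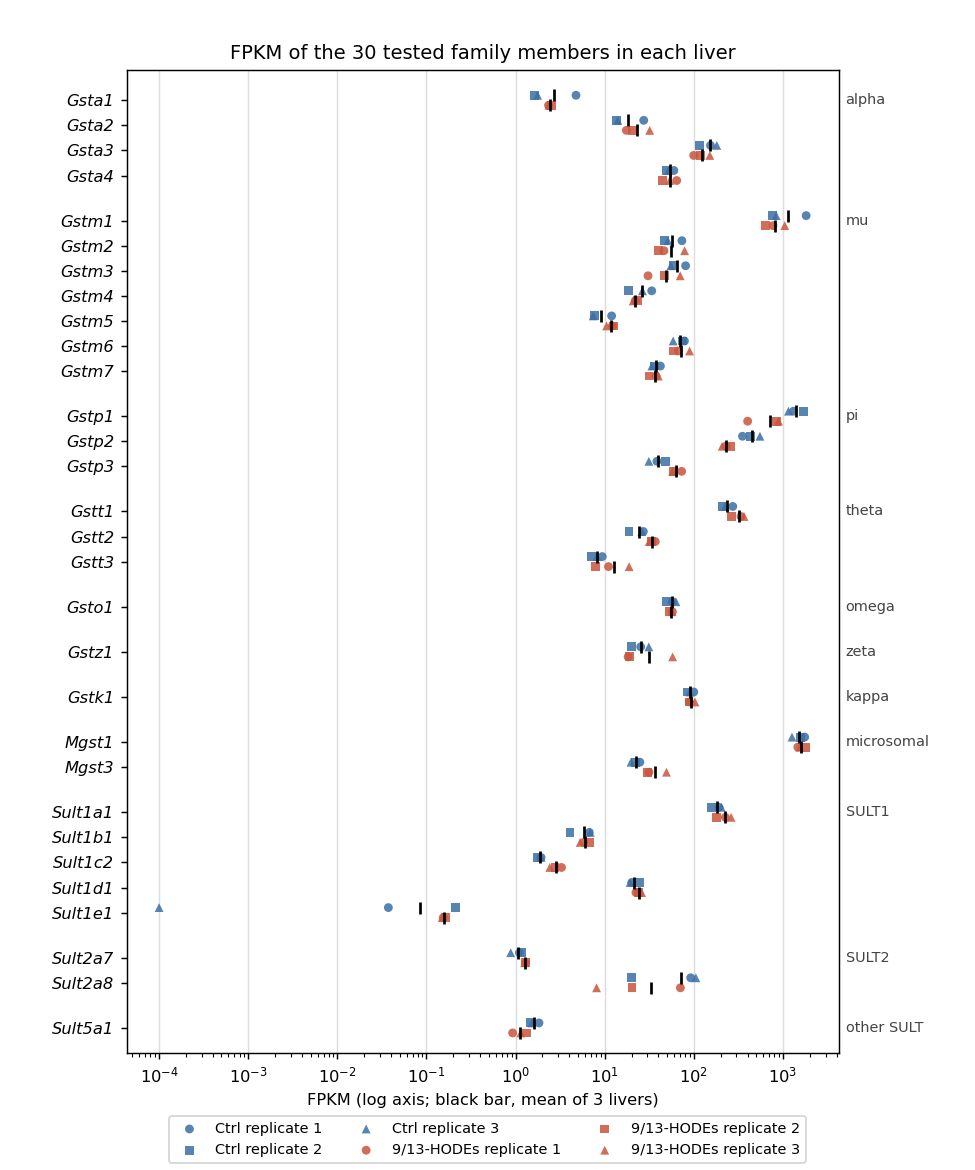
FPKM (log axis) of the 30 tested members, grouped by class, with 1 point per liver (blue, Ctrl; red, 9/13-HODEs) and a black bar for each group mean; a count of 0 is listed in the table at 0.0001. Gstp1, Gstm1 and Mgst1 stand highest, and the groups are apart for Gstp1, Gstp2 and Gstp3.

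**Figure D2:**
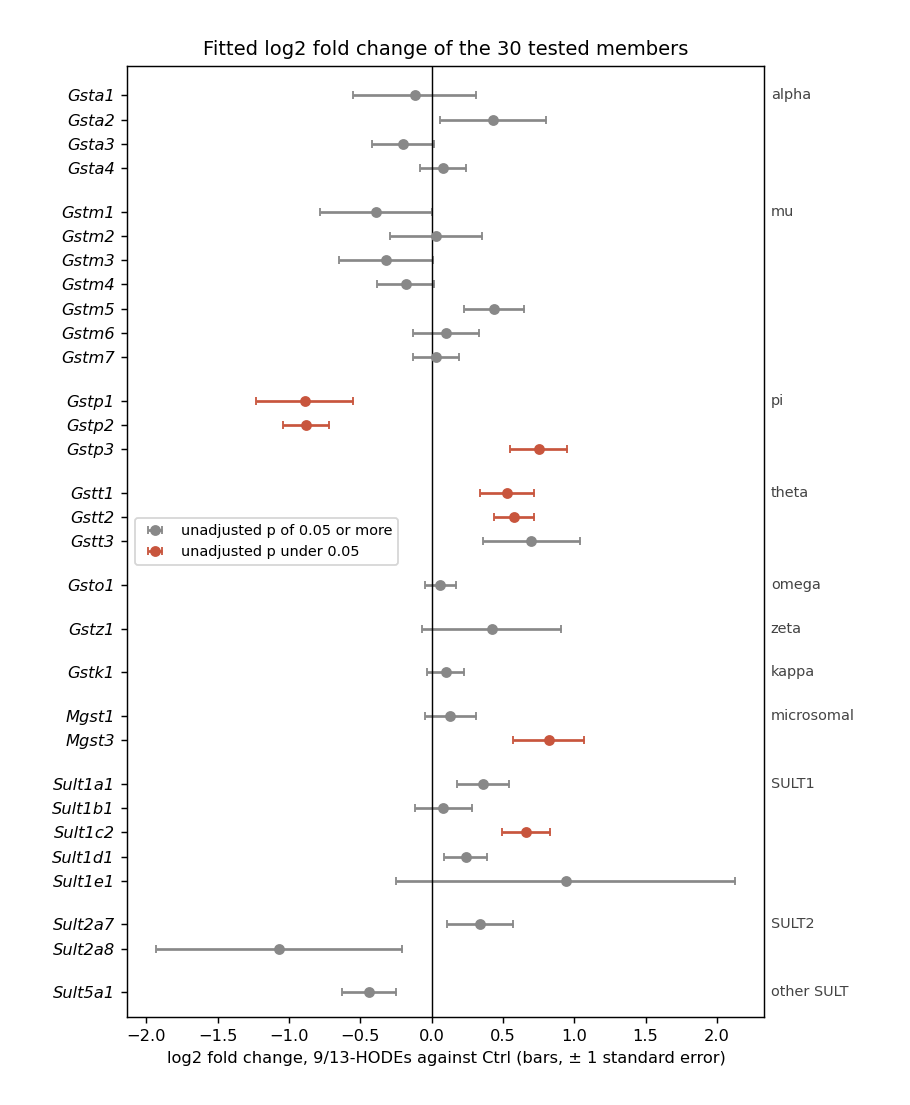
Fitted log2 fold change of each tested member, 9/13-HODEs against Ctrl, with bars of 1 standard error; red points have an unadjusted p under 0.05 and none has an adjusted p under 0.05. The 2 lower red points are Gstp1 (-0.89) and Gstp2 (-0.88), and the 5 higher ones run from Gstt1 (0.53) to Mgst3 (0.82).

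Gstp1 encodes the pi class enzyme best known for handling carcinogen metabolites and oxidised lipids. Its FPKM was 1313, 1687 and 1151 across the Ctrl livers and 401, 844 and 891 across the 9/13-HODEs livers. The groups did not overlap, and 9/13-HODEs replicate 1 was the lowest of all. The mean was 1384 ± 275 (SD, n = 3) in Ctrl and 712 ± 270.3 (SD, n = 3) in 9/13-HODEs. The log2 fold change was -0.89 (SE 0.34, unadjusted p = 0.036, adjusted p = 0.649 in edgeR). Without Ctrl replicate 1, Ctrl replicate 2 or 9/13-HODEs replicate 2 the unadjusted p was 0.0651, 0.112 and 0.0568, with log2 fold changes of -0.93, -0.69 and -0.99.

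Gstp2, its closest relative, had an FPKM of 351, 434 and 551 in Ctrl livers and 229, 257 and 208 in 9/13-HODEs livers. Every treated liver was below every control. The mean was 446 ± 101 (SD, n = 3) in Ctrl and 231 ± 25.0 (SD, n = 3) in 9/13-HODEs, and the log2 fold change was -0.88 (SE 0.16, unadjusted p = 0.00102, adjusted p = 0.465 in edgeR). In DESeq2, run as an alternative, Gstp2 was the only member past the adjusted threshold (adjusted p = 0.00149). Over the alternatives its log2 fold change lay between -1.02 and -0.73 and its adjusted p between 0.00149 and 0.783.

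Gstp3 was expressed far below both neighbours and in the opposite direction. It had an FPKM of 38.6, 47.6 and 31.3 in Ctrl and 72.9, 59.1 and 57.9 in 9/13-HODEs, so that the groups did not overlap. The mean was 39.2 ± 8.20 (SD, n = 3) against 63.3 ± 8.35 (SD, n = 3), with a log2 fold change of 0.75 (SE 0.20, unadjusted p = 0.00783, adjusted p = 0.649 in edgeR). Summed over the class, pi FPKM was 1703, 2169 and 1733 in Ctrl and 703, 1161 and 1157 in 9/13-HODEs.

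The counts of Gstp1 and Gstp2 cannot be separated with confidence. Their transcripts shared 98.2% of 707 aligned bases, and both matched a processed pseudogene, Gstp-ps on chromosome 1, which shared 99.2% of 631 bases with Gstp2 and 97.6% with Gstp1. Gstp-ps was itself listed at an FPKM of 430.0, 751 and 482 across the Ctrl livers and 190.1, 452 and 358 across the 9/13-HODEs livers, with a log2 fold change of -0.68 (SE 0.36, unadjusted p = 0.104 in edgeR). With the 3 genes summed, the counts were 218428, 279252 and 221378 across the Ctrl livers and 78118, 158106 and 160336 across the 9/13-HODEs livers. The sum did not overlap between the groups either, at a log2 fold change of -0.86 (SE 0.29, unadjusted p = 0.0211, adjusted p = 0.649 in edgeR). Gstp3 had no transcript at or above 90% identity, so this limit was not found for it.

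**Figure D3:**
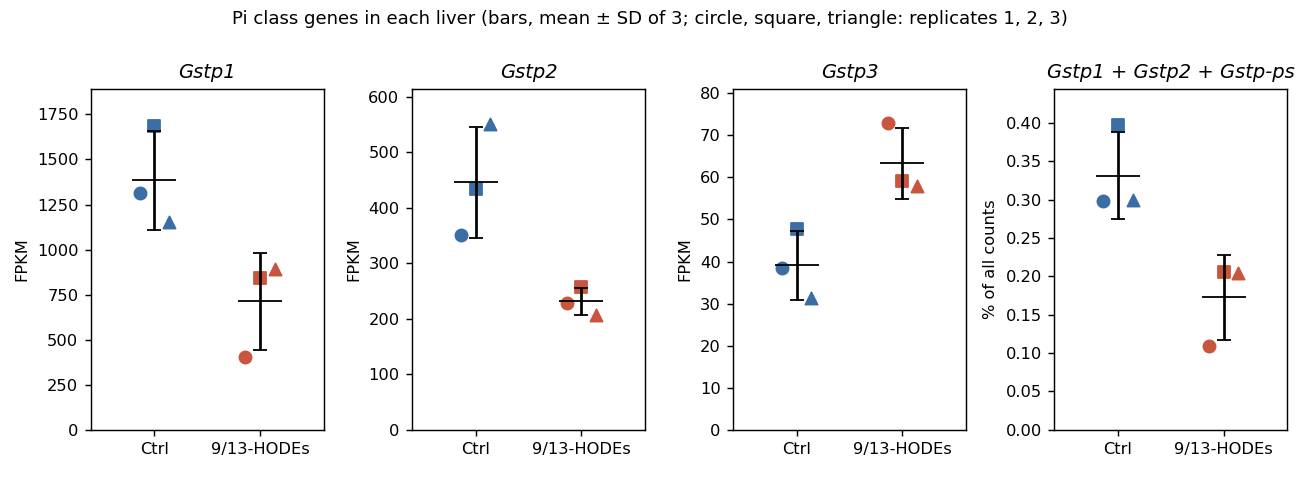
Pi class genes in each liver, as FPKM for Gstp1, Gstp2 and Gstp3 and as percent of all counts for the sum of Gstp1, Gstp2 and Gstp-ps; points are livers (circle, square and triangle for replicates 1, 2 and 3) and bars the mean ± SD of 3. The sum was 0.298, 0.397 and 0.299% of counts in Ctrl and 0.109, 0.206 and 0.204% in 9/13-HODEs, and Gstp3 lies the other way round.

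Genes with a known sex bias in mouse liver were measured beside the pi class, and none of them had an adjusted p under 0.05. All 20 tested male-biased genes lay below 0 on the log2 scale (median -0.39), and 6 were lower (background 3.61%) and 0 higher at an unadjusted p under 0.05 in edgeR, among them C6, a complement factor (-0.72, SE 0.19), and Mup7, a major urinary protein (-1.70, SE 0.48). Their summed FPKM was 16301, 17761 and 18146 in Ctrl livers and 8381, 12289.6 and 7456 in 9/13-HODEs livers, which did not overlap. Most of each sum came from Mup20, Serpina1e and Mup7. Of 20 female-biased genes 12 reached the filter and 10 of these were positive, with a median of 0.46, and 3 were higher (background 4.08%) at an unadjusted p under 0.05 in edgeR, among them Cyp2a4 (1.57, SE 0.38) and Cyp2b9 (4.50, SE 1.42). Their summed FPKM was 45.4, 48.9 and 43.3 in Ctrl livers and 68.2, 57.8 and 57.3 in 9/13-HODEs livers. The part of the sex-biased programme in the Gstp1 and Gstp2 result was not tested.

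In the theta class, which handles small halogenated compounds and sulfate esters, all 3 tested genes had positive log2 fold changes. They lie together on chromosome 10. Gstt2 (chr10:75831114-75837424) had an FPKM of 27.1, 18.7 and 26.1 in Ctrl and 36.9, 33.6 and 31.6 in 9/13-HODEs. Every treated liver was above every control. Gstt2 had a log2 fold change of 0.58 (SE 0.14, unadjusted p = 0.00503, adjusted p = 0.649 in edgeR). Gstt1 (chr10:75783813-75798584), the class member of highest level, had an FPKM of 273, 207 and 225 in Ctrl and 337, 263 and 366 in 9/13-HODEs. These groups overlapped, since 9/13-HODEs replicate 2 lay below Ctrl replicate 1. The log2 fold change of Gstt1 was 0.53 (SE 0.19, unadjusted p = 0.0265, adjusted p = 0.649 in edgeR). Its unadjusted p was 0.0799 without Ctrl replicate 2, 0.0757 without Ctrl replicate 3, 0.0647 without 9/13-HODEs replicate 1 and 0.0802 without 9/13-HODEs replicate 3. Gstt3 gave 0.70 (SE 0.34, unadjusted p = 0.0816 in edgeR), with its highest FPKM, 18.8, in 9/13-HODEs replicate 3 and the other 5 livers between 7.04 and 11.0. Gstt4, the remaining gene of the class in the table, had no count.

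Of the 2 tested microsomal genes, Mgst3 passed the unadjusted threshold and Mgst1 did not, and the difference between them was not tested. Mgst3 (chr1:167371966-167393841) encodes a membrane enzyme with glutathione transferase and peroxidase activity toward lipid hydroperoxides. It had an FPKM of 24.8, 22.0 and 19.7 across the Ctrl livers and 31.4, 30.3 and 49.3 across the 9/13-HODEs livers. The groups did not overlap, and 9/13-HODEs replicate 3 stood above the other treated livers. For Mgst3 the log2 fold change was 0.82 (SE 0.25, unadjusted p = 0.0142, adjusted p = 0.649 in edgeR). Without 9/13-HODEs replicate 3 it was 0.50 with an unadjusted p of 0.0165. Mgst1, which protects endoplasmic reticulum and outer mitochondrial membranes, was the member of highest mean level, with an FPKM of 1751, 1560 and 1262 across the Ctrl livers and 1467, 1787 and 1539 across the 9/13-HODEs livers. Here the groups overlapped widely, and the log2 fold change of 0.13 (SE 0.18) was smaller than its error.

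**Figure D4:**
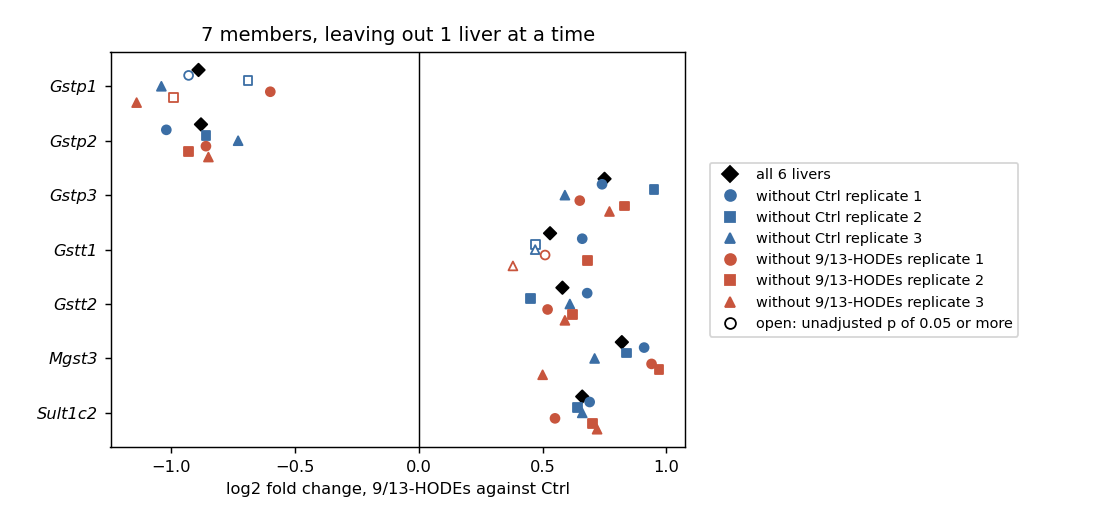
Log2 fold change, 9/13-HODEs against Ctrl, of the 7 members with an unadjusted p under 0.05, with all 6 livers (black diamonds) and with 1 liver left out (blue, a Ctrl liver; red, a 9/13-HODEs liver); open symbols have an unadjusted p of 0.05 or more. Open symbols occur for Gstp1 and Gstt1, while Gstp2, Gstp3, Gstt2, Mgst3 and Sult1c2 are filled in all 6 settings.

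The mu class, a cluster on chromosome 3 that conjugates epoxides and quinones, showed no member past the unadjusted threshold among 7 tested. Gstm1, its main hepatic gene, had an FPKM of 1819, 763 and 839 in Ctrl and 772, 643 and 1047 in 9/13-HODEs. Ctrl replicate 1 alone lay far above the other 5. The log2 fold change of Gstm1 was -0.39 (SE 0.39, unadjusted p = 0.343 in edgeR), and it turned to 0.12 without Ctrl replicate 1. Gstm6 had an FPKM of 78.4, 74.5 and 58.6 in Ctrl and 67.1, 59.1 and 89.6 in 9/13-HODEs, with a log2 fold change of 0.10 (SE 0.23) that turned to -0.14 without 9/13-HODEs replicate 3. The other 5 ran from Gstm3 at -0.32 (SE 0.33) to Gstm5 at 0.44 (SE 0.21, unadjusted p = 0.0757 in edgeR). Gstm1 shared 97.9% of bases with the pseudogene Gstm2-ps1, and Gstm3 shared 97.9% with the pseudogene Gm8834, so that reads could have been divided between them. Summing each pair left the log2 fold changes at -0.39 and -0.32.

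The alpha class, which reduces lipid hydroperoxides and conjugates hydroxyalkenals, had no member past the unadjusted threshold among 4 either. Gsta3, the enzyme that detoxifies aflatoxin epoxide in mice, had an FPKM of 154, 115 and 181 across the Ctrl livers and 99.6, 117 and 151 across the 9/13-HODEs livers. Its log2 fold change was -0.20 (SE 0.22). Gsta4, the member most active on hydroxynonenal, had an FPKM of 59.6, 49.7 and 51.9 across the Ctrl livers and 64.2, 44.6 and 53.6 across the 9/13-HODEs livers. The groups overlapped for both genes, and the log2 fold change of Gsta4 was 0.08 (SE 0.16), with a sign that turned in 4 of 15 alternatives. Gsta1 (-0.12, SE 0.43) and Gsta2 (0.43, SE 0.37) shared 97.2% of 870 bases with each other and Gsta1 shared 99.5% with the neighbouring gene Gm3776, and their separate counts are uncertain. Gsta1 was highest in Ctrl replicate 1, at an FPKM of 4.76 beside 1.64 to 2.52 in the other 5 livers.

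The omega, zeta and kappa classes each had 1 tested gene, and none passed the unadjusted threshold. Gsto1, an omega enzyme that reduces dehydroascorbate and mixed disulfides, had an FPKM of 57.3, 49.2 and 62.9 in Ctrl livers and 57.4, 53.6 and 57.0 in 9/13-HODEs livers, with a log2 fold change of 0.06 (SE 0.11). Gstk1 of the kappa class had an FPKM of 99.8, 84.2 and 90.2 in Ctrl livers and 89.4, 88.1 and 102.9 in 9/13-HODEs livers, with a log2 fold change of 0.10 (SE 0.13). For these 2 genes the groups overlapped and the sign turned under at least 1 alternative. Gstz1, the maleylacetoacetate isomerase of tyrosine breakdown, had an FPKM of 25.3, 20.0 and 31.2 in Ctrl livers and 18.3, 19.0 and 57.8 in 9/13-HODEs livers. Its positive log2 fold change of 0.42 (SE 0.49) rested on 9/13-HODEs replicate 3 and was -0.42 (unadjusted p = 0.0505 in edgeR) without that liver.

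Summed over all members, the glutathione transferases took a share of counts of 1.21, 1.02 and 0.928% in Ctrl and of 0.768, 0.887 and 0.995% after 9/13-HODEs. These ranges overlapped. The mu class added FPKM of 2139, 1006 and 1072 in Ctrl and 988, 857 and 1357 in 9/13-HODEs, while theta added 310, 233 and 259 against 385, 305 and 416. The pi class was the only one of the 8 glutathione transferase classes whose summed FPKM did not overlap between the groups. Most of its sum was Gstp1, and Gstp3 went the other way. Among all tested genes taken singly, the groups did not overlap for 15.1%.

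Among the sulfotransferases, the 5 tested SULT1 genes all had positive log2 fold changes and 1 of them passed the unadjusted threshold. Sult1c2 (chr17:53829637-53846339), a phenol sulfotransferase of low level in liver, had an FPKM of 1.93, 1.74 and 1.94 across the Ctrl livers and 3.28, 2.77 and 2.42 across the 9/13-HODEs livers. The groups did not overlap, and the control livers lay close together. Sult1c2 had a log2 fold change of 0.66 (SE 0.17, unadjusted p = 0.0069, adjusted p = 0.649 in edgeR). Sult1a1, the main hepatic phenol sulfotransferase, had an FPKM of 192, 156 and 203 across the Ctrl livers and 226, 180 and 262 across the 9/13-HODEs livers. Its groups overlapped through 9/13-HODEs replicate 2, and its log2 fold change was 0.36 (SE 0.18, unadjusted p = 0.097 in edgeR). It was 0.17 without 9/13-HODEs replicate 3 (unadjusted p = 0.311) and 0.52 without 9/13-HODEs replicate 2 (unadjusted p = 0.0152). Sult1d1, which acts on catecholamines in mice, had an FPKM of 20.1, 24.4 and 19.2 across the Ctrl livers and 22.4, 23.7 and 26.0 across the 9/13-HODEs livers, a log2 fold change of 0.24 (SE 0.15) that was 0.39 without Ctrl replicate 2 (unadjusted p = 0.0352 in edgeR). Sult1b1, a thyroid hormone sulfotransferase, gave 0.08 (SE 0.20). Sult1e1, the oestrogen sulfotransferase, was near the limit of counting, with 4, 21 and 0 counts across the Ctrl livers and 16, 17 and 17 across the 9/13-HODEs livers.

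In the SULT2 subfamily the largest spread was between mice of 1 group. Sult2a8, a mouse hepatic enzyme that sulfates bile acids, had an FPKM of 92.2, 20.1 and 105 in Ctrl livers and 70.6, 20.2 and 8.10 in 9/13-HODEs livers. Low and high livers occurred in both groups, and the log2 fold change of -1.07 had a standard error of 0.86 (unadjusted p = 0.256 in edgeR). Leaving out 9/13-HODEs replicate 1, the highest treated liver, gave -2.29 with an unadjusted p of 0.0246 and an adjusted p of 0.783 in edgeR, and the other 5 omissions gave between -1.50 and -0.62. Sult2a7 had an FPKM of 1.10, 1.17 and 0.881 in Ctrl livers and 1.299, 1.28 and 1.26 in 9/13-HODEs livers. These did not overlap, at a log2 fold change of 0.34 (SE 0.23, unadjusted p = 0.191 in edgeR). Sult5a1, which belongs to neither SULT1 nor SULT2, lay in the direction opposite to Sult2a7. It had an FPKM of 1.83, 1.46 and 1.53 in Ctrl livers and 0.927, 1.32 and 1.14 in 9/13-HODEs livers. Its groups did not overlap, and the log2 fold change was -0.44 (SE 0.19, unadjusted p = 0.0548 in edgeR).

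The remaining 18 sulfotransferase names, 6 of them pseudogenes, had no count in any library. Among them were the female-type hepatic genes Sult2a1, Sult3a1 and Sult3a2, with Sult2a3, Sult2a4, Sult2a5 and Sult2a6, the brain enzyme Sult4a1 and the cholesterol sulfotransferase Sult2b1. At 70300597 counts or more per library, a count of 0 allows up to 3 counts per library, by counting error alone.

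The highest and lowest values of the tested members fell unevenly over the livers. The same count was not made over all tested genes, so whether this is particular to the 2 families was not tested. Of the 30, 10 had their highest FPKM in 9/13-HODEs replicate 3 and 6 in Ctrl replicate 1, and 11 had their lowest in Ctrl replicate 2 and none in Ctrl replicate 1. Between mice of 1 group the coefficient of variation of FPKM had a median of 19.5% in Ctrl and 15.8% in 9/13-HODEs.

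The genes that supply and clear glutathione were lower where they differed. Of 17 tested genes of glutathione synthesis and turnover, 3 were lower and 0 higher at an unadjusted p under 0.05 in edgeR (background 3.61% lower), with a median log2 fold change of -0.07. The 3 were Chac2, a glutathione-degrading cyclotransferase (-0.45, SE 0.15), Gclc, the catalytic subunit of the rate-limiting ligase (-0.32, SE 0.09), and Lap3, a leucine aminopeptidase (-0.26, SE 0.09). Gclc had an FPKM of 19.9, 20.4 and 23.9 in Ctrl livers and 17.0, 17.0 and 15.2 in 9/13-HODEs livers, which did not overlap. Of 9 genes for export of conjugates and for mercapturate formation, none passed in either direction, with a median of -0.09. Of 14 genes for sulfate and PAPS supply, 2 were lower, Suox, the sulfite oxidase (-0.45, SE 0.14), and Bpnt1, which removes the PAP left by sulfotransfer (-0.34, SE 0.12), and 0 were higher. Of 5 sulfatases, Arsa was lower (-0.39, SE 0.13). Of 9 other relatives of the glutathione transferases, none passed.

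Of 19 tested NRF2 targets outside both families, 2 were higher (background 4.08%) and 5 lower (background 3.61%) at an unadjusted p under 0.05 in edgeR, and the median log2 fold change was -0.07. By the smallest p, Aox1, aldehyde oxidase, was lower (-0.57, SE 0.12), Osgin1, an oxidative stress-induced growth inhibitor, was lower (-2.76, SE 0.70), and Gclc, given above, was the third. The 2 higher were G6pdx (1.42, SE 0.45) and Hmox1 (0.44, SE 0.14), and neither gene's groups overlapped. Osgin1 had an FPKM of 33.7, 4.29 and 15.2 in Ctrl and 2.48, 1.79 and 3.10 in 9/13-HODEs, with a wide spread among controls. Of 22 transcription factors and receptors that regulate such enzymes, Nr1h4, the bile acid receptor FXR, was the only one past the unadjusted threshold (0.25, SE 0.08). None of the genes in these 7 lists had an adjusted p under 0.05.

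**Figure D5:**
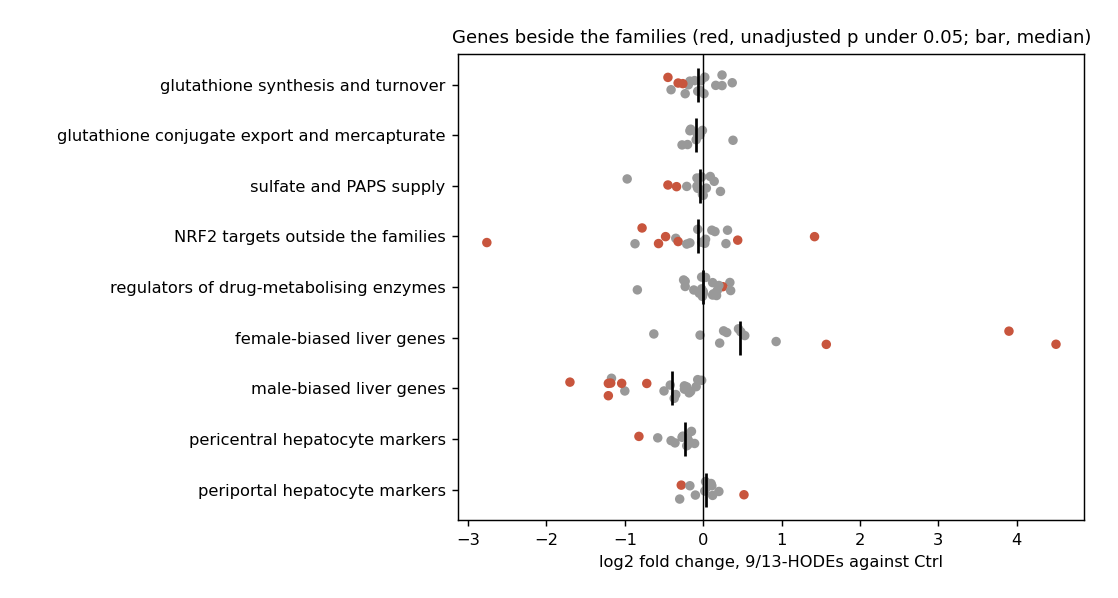
Log2 fold change, 9/13-HODEs against Ctrl, of each tested gene in 5 pathway lists and 4 hepatocyte marker lists (red, unadjusted p under 0.05; bar, list median). All 20 male-biased genes lie below 0 and 10 of 12 female-biased genes lie above it.

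Whole liver holds several cell types, and fewer cells of a type cannot be told apart here from less RNA per cell. The 10 hepatocyte markers were all tested, with a median log2 fold change of -0.03. Their summed FPKM was 95326 to 110217 over the 6 livers, and most of each sum came from Alb, Apoa1, Apoa2 and Ttr. The groups did not overlap for 3 of the 10 (Ahsg, Cps1 and Serpina1a), all lower (background 9.82%), and for 0 higher. All 12 pericentral hepatocyte markers were negative, with a median of -0.23, and Cyp2c29 was lower (-0.82, SE 0.29). The groups did not overlap for 3 of the 12 (Cyp1a2, Cyp2c29 and Glul), all lower, and for 0 higher. The summed FPKM of all 12 was 4278, 5539 and 5355 in Ctrl and 2978, 3935 and 5041 in 9/13-HODEs. These sums overlapped, and most of each came from Cyp2e1. The 12 periportal markers had a median of 0.04, with Sds higher (0.52, unadjusted p = 0.00711 in edgeR) and Cps1, also a hepatocyte marker, lower (-0.28, unadjusted p = 0.0491). Among these 12 the groups did not overlap for 1 higher (Sds) and 2 lower (Cps1 and Hsd17b13). Median log2 fold changes were 0.22 over 9 cholangiocyte, 0.23 over 10 endothelial, 0.28 over 10 Kupffer cell and macrophage, 0.25 over 10 stellate cell and fibroblast, -0.08 over 7 blood cell and 0.56 over 3 intestine and kidney markers. Of these markers, Lyve1 and Stab1 (endothelial) and C1qb (macrophage) were higher at an unadjusted p under 0.05 in edgeR (background 4.08%). So were Retn (adipocyte, 0 counts in every Ctrl liver and 61, 8 and 10 in the 9/13-HODEs livers) and Lgals4 (intestine). Among the 10 Kupffer cell and macrophage markers, the groups did not overlap for 2 higher (background 5.28%) and 1 lower (background 9.82%). The lower one was Adgre1 (log2 fold change -0.54, SE 0.24, unadjusted p = 0.0632 in edgeR). The 7 adipocyte markers summed to an FPKM of 3.83, 2.96 and 1.09 in Ctrl and 6.96, 2.61 and 5.15 in 9/13-HODEs. Of the 8 intestine and kidney markers, Kap, Umod, Slc34a1 and Cdx2 had no count in any library and Vil1 had at most 20 counts. The other 3 were counted in every library, Fabp2 at an FPKM of 48.8 to 76.9, Nphs1 at 2.73 to 6.55 and Lgals4 at 2.65 to 7.49. Lgals4 was higher in every 9/13-HODEs liver than in any Ctrl liver (log2 fold change 0.86, unadjusted p = 0.00681 in edgeR). The adipocyte markers Adipoq, Plin1 and Lep had counts only in 9/13-HODEs replicate 1, at 63, 38 and 4, with Adipoq at an FPKM of 0.581. The part of these cell types in the results was not tested.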

How the data were processed

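Polyadenylated RNA from 6 livers, 1 library per mouse, was sequenced as paired reads from dUTP-marked libraries whose adapters carried molecular identifiers. Whether the deposited counts are of reads or of identifiers, and whether strand was used in counting, is not given in the sources used here. The submitters' processing notes give UMI-tools, cutadapt 1.9, StringTie 1.3.4d and HISAT2 2.0.4, along with edgeR and DESeq2, and no genome build. The authors deposited 1 table with counts (whole numbers, not normalized) and FPKM (scaled by the authors to transcript length and library size) for every gene and library, and a count of 0 is listed at an FPKM of 0.0001.

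Counts were fitted with edgeR 4.0.16 (quasi-likelihood, TMM scaling, R 4.3.3) over the 14741 genes that reached a mean FPKM of 0.1, with group as the only term, and p-values were adjusted by the Benjamini-Hochberg method over all of them. Each p-value sets a group difference against the variation among 3 mice per group, which edgeR estimates partly from other genes. In the fits with 1 liver left out, 1 group held fewer mice. Alternatives used DESeq2 1.42.0, limma 3.58.1 on log2(FPKM + 0.1), on log2(FPKM + 1) and on TPM rescaled from FPKM, other filters and scalings, a replicate block and each liver left out. The longest coding transcript of each tested member was aligned with BLAST+ 2.17.0 to all GENCODE transcripts, and genes at or above 95% identity were also summed, an alternative chosen after seeing the data. Promoters came from RefSeq (GRCm38.p6). Libraries held 70300597 to 78615288 counts, and every standard error rests on 3 mice per group.

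The members and lists were chosen with earlier results of these data known. Values are given for members with an unadjusted p under 0.05, members with a mean FPKM of at least 1 whose groups do not overlap and the 2 of highest level in each class. From each pathway list the 3 genes of smallest p under 0.05 were eligible. The 2 higher NRF2 targets are named beside them, so that both directions are shown.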

Additional observations from a re-analysis of the deposited data

How the results depend on the processing

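Of 300 log2 fold changes (20 members under 15 alternatives), 283 kept their direction and 17 turned. The 7 members with an unadjusted p under 0.05 kept theirs in all 15. In edgeR no member passed the adjusted threshold under any alternative. DESeq2 called 89 genes, with 1 glutathione transferase (Gstp2), against 3 and 0 in edgeR. With 1 liver left out, edgeR called 3 to 16 genes. The sample titles number the replicates and name no pairing of mice. Correlations of deviations were 0.00712, -0.0277 and -0.0377 for equal numbers and -0.0136 to 0.0397 for unequal numbers. With 3 libraries per group this cannot exclude a pairing. The replicate block gave 0 genes and the same 7 members at an unadjusted p under 0.05. Glutathione transferases higher at an unadjusted p under 0.05 numbered 3 to 7 with 1 liver left out (7 without Ctrl replicate 1), and those lower 1 to 3, with 1 also when near-identical genes were summed, since Gstp1 and Gstp2 are then a single row. Sulfotransferases higher numbered 1 to 3 (3 without Ctrl replicate 2) and those lower 0 to 1, with 1 (Sult5a1) at a mean FPKM of at least 1 and in all 3 limma fits. Members that reached an unadjusted p under 0.05 only when 1 liver was left out were Gsta1, Gsta2 and Gstm5 (higher without Ctrl replicate 1), Sult1d1 and Sult1e1 (higher without Ctrl replicate 2), Sult1a1 (higher without 9/13-HODEs replicate 2), Sult2a8 (lower without 9/13-HODEs replicate 1) and Gstm3 (lower without 9/13-HODEs replicate 3), while Gstt3 was higher without 9/13-HODEs replicate 2 and in DESeq2. The sulfotransferase median of 0.29 was 0.22 with limma on log2(FPKM + 0.1), 0.13 on log2(FPKM + 1), 0.14 on TPM and 0.15 to 0.33 with 1 liver left out. The glutathione transferase median was -0.07 on TPM and -0.05 to 0.21 with 1 liver left out. TPM scaling moved the median of all genes to -0.14, and the shifts on that scale are to be read against it. On TPM, Gsta4 was -0.08, Gstm6 -0.06, Gsto1 -0.09, Gstk1 -0.05 and Mgst1 -0.01. With limma on log2(FPKM + 0.1) and log2(FPKM + 1), Gsta4 was -0.0014 and -0.0012 and Gsto1 -0.0046 and -0.0046. With 1 liver left out, Gsta4 ran from -0.05 to 0.23, Gstm1 from -0.66 to 0.12, Gstm6 from -0.14 to 0.26, Gsto1 from -0.0011 to 0.12, Gstz1 from -0.42 to 0.71, Gstk1 from -0.02 to 0.18 and Mgst1 from -0.02 to 0.24. The causes of these turns were not tested.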
